A study of Mus musculus with 44 samples.

Results

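The Fos and Jun family factors are the 7 genes Fos, Fosb, Fosl1, Fosl2, Jun, Junb and Jund. They were taken from the table of ribosome-bound RNA by symbol, as the rows whose Ensembl identifiers carry these names in the GENCODE annotation of GRCm38, and they make up 7 of the 55335 genes in the table. The 20 libraries came from hippocampus of Emx1-NuTRAP mice, which carry the Emx1-IRES-Cre driver and the NuTRAP reporter, so that ribosomes and nuclei are tagged in cells of the Emx1 lineage, mostly excitatory neurons. All mice carried both alleles, and early-life exercise (ELE) mice had a running wheel from postnatal day 21 to 41 while sedentary mice did not. RNA was taken by simultaneous INTACT and TRAP (SIT) from both hippocampi of 4 ELE and 4 sedentary mice, or by TRAP on its own from the left hippocampus of 3 ELE and 3 sedentary mice and the right hippocampus of 3 ELE and 3 others that stayed sedentary. Each library is a separate mouse, and the Emx1 lineage also takes in glia, so the tagged RNA is not purely neuronal.

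Fos and Jun proteins are basic leucine zipper transcription factors that pair to form the dimer called AP-1. Fos proteins bind DNA stably only with a Jun partner, whereas Jun proteins can also pair with each other. In hippocampal neurons Fos, Fosb and Junb are immediate early genes: their transcripts appear within minutes of strong synaptic activity or calcium entry and are lost soon after, so one moment of sampling catches recent activity. Jund is present in resting cells, Jun is also driven by stress kinases, and Fosl1 and Fosl2 are slower members of the Fos branch.

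The Fos family members lie on different chromosomes in GRCm38. Fos spans chr12:85473890-85477273 on the plus strand, Fosb chr7:19302696-19310051 on the minus strand, Fosl1 chr19:5447547-5455946 on the plus strand and Fosl2 chr5:32135801-32157842 on the plus strand. Of the Jun family, Jun spans chr4:95049034-95052222 on the minus strand, Junb chr8:84974484-84978718 on the minus strand and Jund chr8:70698949-70700616 on the plus strand. Every member was counted over the exons of the whole gene, so splice forms such as the short form of Fosb were not separated.

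The promoters of Fos, Fosb and Junb are shown because these genes set 1 library apart from all others below. Each sequence holds 250 bases before and 50 after the RefSeq start in GRCm38.p6, read 5′ to 3′ on the gene's own strand, and capitals mark the letters TGACG, the core of the cAMP response element bound by CREB. The Fos promoter is chr12:85473640-85473939 on the plus strand, that of Fosb chr7:19309996-19310295 on the minus strand and that of Junb chr8:84978699-84978998 on the minus strand.
Fos: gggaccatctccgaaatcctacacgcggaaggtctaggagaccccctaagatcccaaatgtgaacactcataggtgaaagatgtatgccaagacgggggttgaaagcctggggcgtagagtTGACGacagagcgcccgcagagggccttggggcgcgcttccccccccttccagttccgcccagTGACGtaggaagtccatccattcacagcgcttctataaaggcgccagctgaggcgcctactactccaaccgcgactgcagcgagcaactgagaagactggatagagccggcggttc
Fosb: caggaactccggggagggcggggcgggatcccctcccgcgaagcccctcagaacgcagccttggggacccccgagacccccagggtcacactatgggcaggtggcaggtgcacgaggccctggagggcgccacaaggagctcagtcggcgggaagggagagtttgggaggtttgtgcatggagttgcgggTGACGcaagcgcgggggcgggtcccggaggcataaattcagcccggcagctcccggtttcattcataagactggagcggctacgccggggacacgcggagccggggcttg
Junb: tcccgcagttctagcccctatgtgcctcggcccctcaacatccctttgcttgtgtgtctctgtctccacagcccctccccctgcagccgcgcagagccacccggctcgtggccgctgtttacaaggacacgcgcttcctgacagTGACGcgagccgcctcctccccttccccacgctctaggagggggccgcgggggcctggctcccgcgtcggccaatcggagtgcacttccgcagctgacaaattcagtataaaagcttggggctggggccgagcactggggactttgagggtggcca
The RefSeq promoter table held 6 of the 7 members, all but Fosl1. TGACG, searched on both strands, was present in 3 of these 6 promoters, with its first base at -129 and -66 from the start in Fos, at -60 in Fosb and at -106 in Junb, and in 20.8% of all 32851 promoters of this length. The full element TGACGTCA, which contains TGACG, was in 0 of 6 against 1.79% of all promoters, the AP-1 letters TGANTCA in 0 of 6 against 7.81% and the CArG box, bound by serum response factor, in 0 of 6 against 1.63%. The TATA box TATAAA was in 2 of 6, at -33 in Fos and at 1 in Junb, against 13.6%. Such a match describes letters in a window and not a bound site. The Jund window, chr8:70697489-70697788, ends before the counted gene begins, and that of Fosl2, chr5:32136222-32136521, lies inside the counted gene.

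Depth was even across the series, with 45895097 to 65767802 counts per library. The study had left 3 of the 8 SIT libraries out of its comparison as outliers, and the 5 kept (ELE NT6.303, TG7.4.1 and TG7.4.2, sedentary NT6.305 and NT6.306) were found again from the mean normalized counts in its supplement. The 3 left out stand apart here too. Sedentary libraries NT7.2.4 and NT7.2.3 held 9.64% and 8.64% mitochondrial counts against 0.07 to 0.52% elsewhere, and their 10 microglial markers summed to 249 and 239 CPM, counts scaled to the size of the library, against 7.75 to 16.2. The ELE library NT6.304 is described with the members below. Markers of excitatory neurons summed to 10297 to 13180 CPM over the 20 libraries, and none of the 10 was at 0 throughout. The labels carry no mouse numbers, so hemisphere and group of a library were read from the mouse numbers in the study's supplement.

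The Jun family stood above the Fos family in the 19 libraries other than NT6.304 once levels were divided by exonic length. Over these libraries the median level was 84.8 CPM per kilobase for Jund, 38.3 for Jun, 26 for Junb, 5.84 for Fosl2, 4.88 for Fos, 1.82 for Fosb and 0.0417 for Fosl1. Jund was above Jun in 19 of 19 libraries and Jun above Junb in 18 of 19. Junb was above Fosl2 in 19 of 19, with no overlap of their ranges. Fosl2 and Fos were the closest neighbours, in this order in 16 of 19 libraries, and their ranges overlapped. Fosl1 had 0 to 18 counts per library, with 0 in 5 libraries, where up to 3 counts can be missed by chance, and it fell under the filter on low counts in every comparison. The plot of levels by library shows these bands and the library NT6.304 rising out of them.

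**Figure D1:**
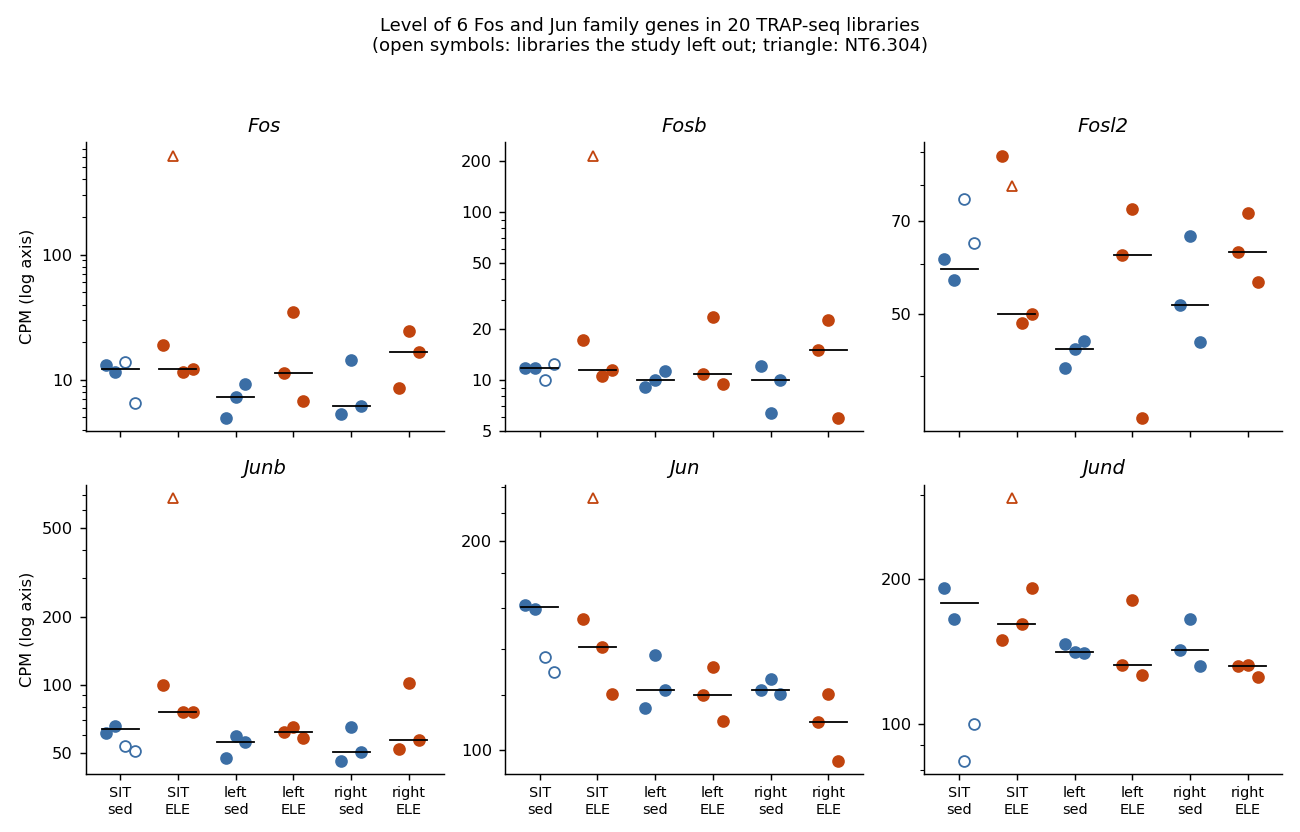
CPM of 6 members on log axes in each of the 20 libraries, grouped by isolation, hemisphere and exercise, with lines at group medians over the libraries the study kept. Fos, Fosb and Junb of the ELE library NT6.304 lie at 621, 217 and 676 CPM, above all other points of their panels.

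One ELE library of the SIT series, NT6.304, held the highest level of 5 of the 6 members with a mean above 1 CPM. Fos was at 621 CPM there against a median of 11.5 in the other 19 libraries, a ratio of 54.1, and 17.8 times the next highest library. Fosb was at 217 CPM against a median of 11.4, a ratio of 19, and Junb at 676 against 59.7, a ratio of 11.3. The excess was smaller for Jund, at 296 CPM and a ratio of 2.09, and for Jun, at 231 CPM and a ratio of 1.89. Fosl2 was at 80 CPM, a ratio of 1.41 and the second highest of the 20 libraries. Among the 14224 genes with a mean above 1 CPM the median ratio was 1.01, 16.2% were highest in NT6.304 and 3.95% had a ratio over 2, and the ratio of Fos ranked 8, that of Fosb 27 and that of Junb 45.

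The immediate early genes outside the Fos and Jun families were also high in NT6.304. Of 26 listed ones with a mean above 1 CPM, 22 were highest in this library, 20 had a ratio over 2, and the median ratio was 4.12. The neuronal activity regulator Npas4 had a ratio of 39.7, the zinc finger factor Egr2 38.0, the antiproliferative factor Btg2 24.5 and Arc, a synaptic protein that moves AMPA receptors, 14.3. The list did not move as one, since the nuclear receptors Nr4a2 and Nr4a3 were lowest of the 20 libraries here, with ratios of 0.50 and 0.47. Npas4, Btg2, Nr4a2 and Nr4a3, and the other genes of this and the next paragraph that no comparison called, were chosen after their values were seen.

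Genes that pair with, hold back or respond to AP-1 were split in the same library. Of 14 dimer partners with a mean above 1 CPM, 5 were highest in NT6.304, among them Atf3 with a ratio of 22.0, the small Maf factor Maff with 13.3 and the stress factor Atf4 with 3.09. Of 14 genes of turnover and inhibition, 10 were highest, including Zfp36, which destabilises short-lived mRNAs, at 20.3 and the kinase phosphatase Dusp1 at 6.48. Upstream kinases and factors moved least, with 6 of 28 highest and a median ratio of 1.08. Of 19 genes linked to Fos or the short Fosb form, 10 were highest, led by the neuropeptides Npy at 192 and Penk at 21.0, while the calcium buffer Calb1 at 0.35 and the kinase Camk2a at 0.53 were lowest of the 20.

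In depth and excitatory neuron markers NT6.304 lay within the range of the remaining libraries, and in markers of some other cells it lay above them. It had 51744157 counts and 0.19% mitochondrial counts, and its excitatory neuron markers summed to 10458 CPM against 10297 to 13180 elsewhere. Its microglial markers summed to 16.2 CPM, the highest outside the 2 sedentary libraries named above, its striatal markers to 139 CPM against 58.4 to 83.8 and its interneuron markers to 114 CPM against 42.4 to 81.9 outside the same 2 libraries. Their part in the high Fos, Fosb and Junb levels was not tested. In these bulk samples more cells carrying a transcript and more transcript per cell cannot be told apart.

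**Figure D2:**
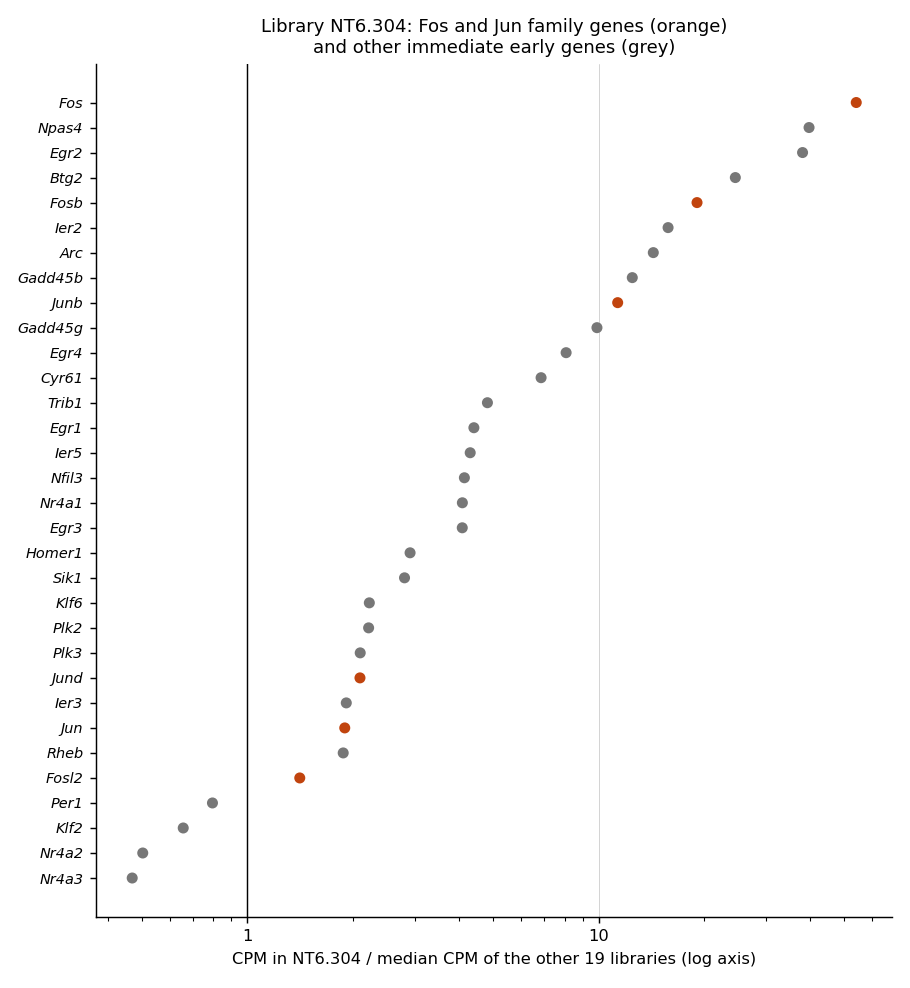
Ratio of the CPM in NT6.304 to the median of the other 19 libraries, on a log axis, for 6 members (orange) and 26 other immediate early genes (grey), with a line at 1. Fos at 54.1, Fosb at 19 and Junb at 11.3 lie far right of Jund, Jun and Fosl2, and the other immediate early genes spread from 0.47 to 39.7.

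ELE was compared with sedentary by edgeR's quasi-likelihood test over all genes. A gene was called at an unadjusted p under 0.05 and a change above 0.39 on the log2 scale, which is 1.31-fold, a rule chosen to match the methods of the study. Calls at this rule are weak. No gene had an adjusted p under 0.05 in the SIT, left or right comparison, where 1000 of 18238, 699 of 17750 and 488 of 17570 were under 0.05 before adjustment. After adjustment DESeq2 gave 14, 0 and 14 genes, and edgeR with no filter on low counts gave 105, 0 and 27. Of the members, 1 of 6 tested was called higher in each comparison and none lower: Junb in SIT and Fos in left and in right hippocampus. The shares of all genes called higher were 1.54%, 1.1% and 0.746%.

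Fos was called higher in ELE than in sedentary libraries isolated from single hippocampi by edgeR, and by DESeq2 it was called in neither hemisphere taken alone. In the left hippocampus its levels were 11.4, 34.9 and 6.83 CPM in ELE mice TG7.3.2, TG9.1.4 and TG9.2.2 and 4.96, 7.24 and 9.28 CPM in sedentary mice TG7.3.4, TG9.1.2 and TG9.2.4. The groups overlapped, with TG9.2.2 below 2 of the sedentary mice, while 4.83% of all genes had every ELE mouse above every sedentary one. The change was 1.30 ± 0.54 (log2, SE), or 2.46-fold (edgeR adjusted p = 0.960), and the call was lost in 3 of the 6 fits that leave out a mouse, at 0.36 without TG9.1.4, 1.31 without TG9.1.2 and 1.09 without TG7.3.4. Between mice sharing the first part of their number, ELE was above sedentary for TG7.3 and TG9.1 and below it for TG9.2. With that part of the number as a block the call was also lost.

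In the right hippocampus Fos was at 8.59, 24.5 and 16.5 CPM in ELE mice TG7.3.1, TG9.1.3 and TG9.2.1 and at 5.34, 14.5 and 6.16 CPM in sedentary mice TG7.3.3, TG9.1.1 and TG9.2.3. These groups overlapped as well, through TG9.1.1, whose Fos level exceeded that of TG7.3.1, while 3.71% of all genes were separated upward. Between mice sharing the first part of their number, ELE was above sedentary for TG7.3, TG9.1 and TG9.2. The change was 0.94 ± 0.42 (log2, SE), or 1.92-fold (edgeR adjusted p = 0.9998), and the call was lost in 4 of the 6 fits that leave out a mouse, at 0.53 without TG9.1.3, 0.94 without TG9.2.1, 0.745 without TG9.2.3 and 0.69 without TG7.3.3. The exact two-sided permutation test on log2(CPM + 0.5) gave p = 0.3 in left and p = 0.2 in right hippocampus, where 0.1 is the smallest it can give.

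Over both hemispheres, with hemisphere as a covariate, Fos was 2.17-fold higher in ELE, at 1.12 ± 0.38 on the log2 scale (edgeR adjusted p = 0.902). It was the 1 member of 6 called, beside 0.771% of all genes called higher. The 6 ELE mice averaged 17.1 ± 10.8 CPM (SD) and the 6 sedentary mice 7.92 ± 3.59 CPM (SD). The call held with DESeq2 and without each of the 12 mice in turn, with changes from 0.69 to 1.40. Both of the highest ELE libraries came from mice numbered TG9.1, and without the 4 mice of that number the change was 0.74 (edgeR adjusted p = 0.711), still the 1 member called beside 1.01% of all genes. What a shared first number stands for was not given in the sources used here.

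In SIT libraries Fos did not pass the test. It was at 19.1, 11.5 and 12.2 CPM in the kept ELE mice NT6.303, TG7.4.1 and TG7.4.2 and at 13 and 11.5 CPM in the kept sedentary mice NT6.305 and NT6.306, a change of 0.22 ± 0.23 (log2, SE). With all 8 libraries, which add NT6.304 at 621 CPM and sedentary NT7.2.4 and NT7.2.3 at 6.48 and 14.0 CPM, the change was 3.88 ± 1.25 and called (edgeR adjusted p = 0.460). Without NT6.304 it was 0.34 and not called, so that 1 library decided this value.

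Fosb, whose short form is a long-lived product of repeated stimulation, was not called in any of the 3 comparisons. Its left levels were 10.9, 23.6 and 9.43 CPM in ELE and 9.12, 9.95 and 11.4 CPM in sedentary mice, and its right levels 15.2, 22.8 and 5.96 CPM in ELE and 12.1, 6.34 and 10.0 CPM in sedentary mice. The groups overlapped on both sides, and the highest ELE mice were again TG9.1.4 and TG9.1.3. Over both hemispheres the change was 0.58 ± 0.29 (edgeR adjusted p = 0.911), and without the 4 TG9.1 mice it was -0.04. A call appeared at 0.76 on the left without TG9.2.2, at 1.003 on the right without TG9.2.1, and over both at 0.66 without TG7.3.2, 0.74 without TG9.2.1 and 0.69 without TG9.2.2. In the kept SIT libraries Fosb was at 17.3, 10.6 and 11.5 CPM in ELE and 11.8 and 11.8 CPM in sedentary mice, and its change of 0.15 with these became 2.46 with all 8 and 0.18 without NT6.304.

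Fosl2, the slower Fos family member, was not called either. It was at 62, 73.3 and 34.4 CPM in left ELE against 41.2, 44.1 and 45.3 CPM in left sedentary mice, and at 62.6, 72.3 and 56.3 CPM in right ELE against 51.7, 66.5 and 45.3 CPM in right sedentary mice. The groups overlapped through TG9.2.2, the lowest left library, and through TG9.1.1. Without TG9.2.2 Fosl2 was called on the left at 0.64 and over both hemispheres at 0.41, and without TG9.1.1 it was called on the right at 0.39. The change over both hemispheres was 0.30 ± 0.15 (edgeR adjusted p = 0.911), and in the kept SIT libraries, at 88.9, 48.4 and 50.1 CPM in ELE and 61.1 and 56.5 CPM in sedentary mice, it was 0.08 ± 0.23.

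Junb, a Jun family member that is itself an immediate early gene, was the member called in SIT. Its levels were 100.03, 75.6 and 75.9 CPM in the kept ELE mice NT6.303, TG7.4.1 and TG7.4.2 and 61.1 and 66.2 CPM in the kept sedentary mice NT6.305 and NT6.306, so that every ELE mouse lay above both sedentary mice. Of all genes tested, 10.4% were separated upward in this way. TG7.4.1 and TG7.4.2 share a first number that no sedentary mouse has, so number and exercise cannot be fully told apart here. The change was 0.39 ± 0.14 (log2, SE), or 1.31-fold, just past the fold required (edgeR adjusted p = 0.905). It was 0.25 without NT6.303 and 0.34 without NT6.305, neither of them called, and with 10 arrangements the exact permutation test gave p = 0.1, the smallest it can give.

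The 3 SIT libraries that the study left out fell on the same side for Junb. NT6.304 was at 676 CPM, and sedentary NT7.2.4 and NT7.2.3 were at 51.3 and 53.4 CPM, so all 4 ELE libraries lay above all 4 sedentary ones, as 2.08% of all genes did. The change with all 8 libraries was 1.99 ± 0.66 (edgeR adjusted p = 0.462), when Fos, Fosb and Junb were the 3 of 6 members called higher, beside 2.29% of all genes. Without NT6.304 it was 0.53 ± 0.14 (edgeR adjusted p = 0.547), the 1 member of 6 called, beside 1.54% of all genes, and 4.14% of all genes were separated upward. The exact two-sided permutation test gave p = 0.0286 with all 8 libraries and p = 0.0286 without NT6.304, each the smallest it can give. In the same comparisons 10 of 10 microglial and 8 of 8 interneuron markers were called lower in ELE, beside 5.41% of all genes with all 8 libraries and 5.4% without NT6.304. Choroid plexus markers had 6 of 8 called lower in both, endothelial and mural markers 5 of 9 and 3 of 10, meningeal markers 2 of 5 and 4 of 6, and oligodendrocyte markers 3 of 10 in both. The sums in NT7.2.4 and NT7.2.3 were 249 and 239 CPM for microglia and 898 and 867 CPM for interneurons, and the part of all these cells in the Junb change over these libraries was not tested. NT7.2.4 and NT7.2.3 also share a first number that no ELE mouse has, so number and exercise cannot be fully told apart.

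In single hippocampi Junb was not called. It was at 62.1, 65.4 and 58.2 CPM in left ELE and 47.5, 59.7 and 55.7 CPM in left sedentary mice, and at 52.1, 103 and 56.8 CPM in right ELE and 46.2, 65.2 and 50.7 CPM in right sedentary mice. The left groups overlapped through TG9.1.2, and on the right TG9.1.3 lay apart from the rest. The change was 0.19 ± 0.10 on the left and 0.39 ± 0.24 on the right, the latter 0.01 without TG9.1.3 and 0.57, with a call, without TG7.3.1. Over both hemispheres it was 0.29 ± 0.15 (edgeR adjusted p = 0.911). Whether the Junb change differed between SIT and single hippocampi was not tested.

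Jun, the founding member of its family and a target of the JNK kinases, and Jund, which is held at a steady level in resting cells, were not called with the kept SIT libraries, in left or right hippocampus or over both. Jun was at 155, 141 and 120 CPM in the kept SIT ELE mice and 162 and 160 CPM in the kept sedentary mice, all ELE below all sedentary, as were 11.7% of all genes. The change was -0.22 ± 0.11 (edgeR adjusted p = 0.932), and 0.14 with all 8 libraries. Over both hemispheres Jun ranged from 96.4 to 132 CPM with a median of 115 in ELE and from 115 to 137 with a median of 122 in sedentary mice, overlapping groups with a change of -0.11 ± 0.07. Jund was at 150, 162 and 192 CPM in the kept SIT ELE mice and 192 and 166 CPM in the sedentary ones, a change of -0.09 ± 0.13. With all 8 SIT libraries the Jund change was 0.56 ± 0.29 and not called, without NT6.304 it was 0.31, and of the 8 fits that leave out 1 of these libraries the one without NT6.305 called it, at 0.77. Over both hemispheres Jund ranged from 125 to 181 CPM with a median of 132 in ELE and from 132 to 166 with a median of 142 in sedentary mice, also overlapping, with a change of -0.07 ± 0.08.

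**Figure D3:**
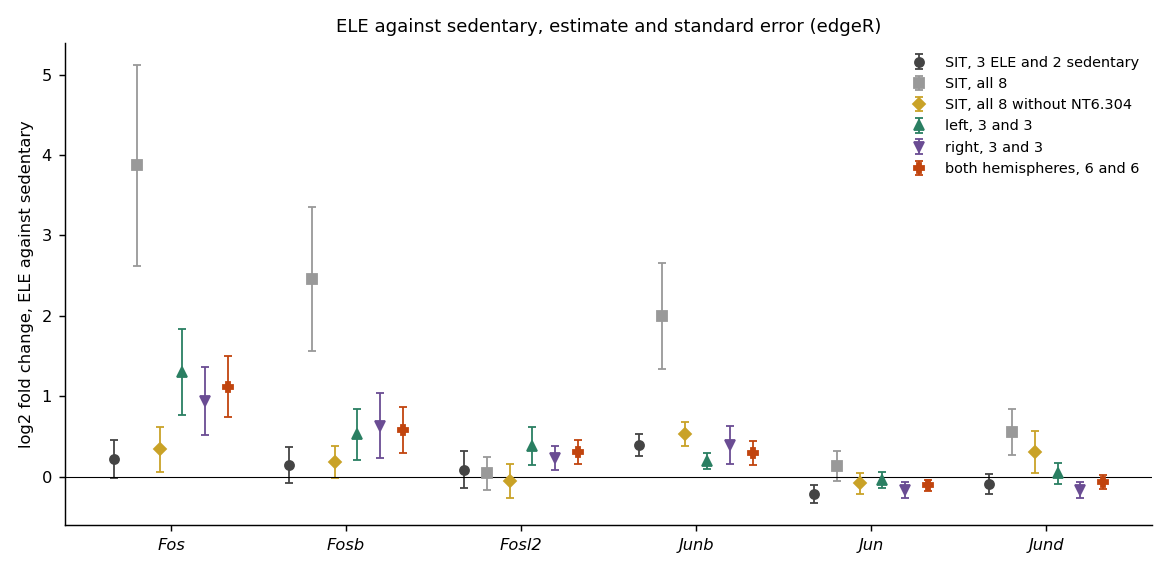
Log2 fold change of ELE over sedentary, with bars of 1 SE, for 6 members in the kept SIT libraries, in all 8 with and without NT6.304, in left, in right and over both hippocampi, from edgeR. Fos is the highest member in left (1.30), right (0.94), both (1.12) and all 8 SIT libraries (3.88), and Junb in the kept SIT libraries (0.39).

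The exercise change of no member was shown to differ between hemispheres, with 0 of 6 called for the interaction beside 2.2% of all genes in either direction. The left change minus the right change was 0.36 ± 0.77 for Fos and lay between -0.20 and 0.21 for the other 5 (log2), all with an edgeR adjusted p of 1. Between left and right libraries 0 of 6 members were called beside 1.14% of all genes. The widest difference, left minus right, was -0.24 ± 0.15 for Fosl2, and it ran from -0.35 to -0.14 when each mouse was left out, with no call. The counts at an unadjusted p under 0.05 were 0 of 6 in both, by edgeR and by DESeq2.

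Levels of Jun and Jund were slightly higher in SIT than in separately isolated libraries. Jun ranged from 120 to 162 CPM with a median of 155 in the 5 kept SIT libraries and from 96.4 to 137 with a median of 120 in the 12 separate ones, a difference of 0.33 ± 0.07 on the log2 scale with exercise as covariate (edgeR adjusted p = 0.0008). Jund ranged from 150 to 192 CPM in SIT and from 125 to 181 in separate libraries, a difference of 0.30 ± 0.08 (edgeR adjusted p = 0.0057). Both ranges overlapped between the isolations. Junb differed by 0.31 ± 0.12 (edgeR adjusted p = 0.0706), and the differences of Fos, Fosb and Fosl2 lay between 0.04 and 0.16. At an adjusted p under 0.05, 2 of 6 members and 25.5% of all genes passed, and 0 of 6 passed the rule of p and fold, against 4.89% of all genes called higher in SIT. Isolation went with other mice and with the bilateral against the single hippocampus, and these cannot be told apart. Mitochondrial counts were 0.24 to 0.52% of the total in the 5 kept SIT libraries and 0.07 to 0.12% in the 12 separate ones, with no overlap. Of the astrocyte markers 6 of 10 were called lower in SIT, beside 9.52% of all genes, with sums of 4364 to 6823 CPM against 6322 to 9836 CPM. Of the interneuron markers 6 of 8 were called higher, with sums of 66.4 to 81.9 CPM against 42.4 to 79.0 CPM. Their part in the Jun and Jund differences was not tested.

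Other genes of the pathway were read from lists of dimer partners, upstream regulators, turnover factors, further immediate early genes and linked targets. Over both hemispheres 5 of 27 further immediate early genes were called higher and 0 lower, with a median change of 0.28 that was 0.17 without TG9.1.4, beside 0.771% of all genes called higher and a median over all genes of -0.001. They include Nfil3, a bZIP repressor, at 0.54 ± 0.11, the kinase Sik1 at 0.60 ± 0.17, and the zinc finger factors Egr2 at 1.85 ± 0.54 and Egr1 at 0.47 ± 0.14. Without the 4 TG9.1 mice 3 of 27 were called, with a median of 0.15, and Egr1, at 0.32, was not among them. Of the others, Atf3, a partner of Jun proteins, was the 1 of 14 dimer partners called, at 1.59 ± 0.54, and Inhba, the activin subunit, the 1 of 20 linked targets called. Without TG9.1.4 Inhba was at 0.51 and 0 of 20 linked targets were called, their median going from 0.17 to 0.03. Upstream regulators had 0 of 28 called and turnover factors 0 of 14, with medians of 0.01 and 0.04. These lists were chosen with earlier results of these data known.

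Within the left hippocampus 5 of 27 further immediate early genes were called higher beside 1.1% of all genes, with a median change of 0.25, and without TG9.1.4 there were 2 of 27, with a median of 0.10. Nfil3 changed by 0.66 and by 0.55 without that mouse and Sik1 by 0.77 and 0.71, whereas Gadd45g, a growth arrest factor, changed by 0.93 and 0.26 and the pseudokinase Trib1 by 0.80 and 0.25. Of 14 dimer partners 2 were called, Atf3 at 2.52 and Maff at 2.53, and without TG9.1.4 they were at 1.37 and 0.02. Of 19 linked targets 4 were called, led by Npy at 5.36, Timp1 at 4.79, Inhba at 1.93 and Pdyn at 0.78, and 0 of 19 without it. Npy was at 301 CPM in TG9.1.4, against 0.755 to 3.28 in the other 5 left libraries. Turnover factors had 0 of 14 and upstream regulators 0 of 28 called.

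In the right hippocampus 5 of 27 further immediate early genes were called higher beside 0.746% of all genes, with a median change of 0.27, and without TG9.1.3 there were 2 of 27 higher and 1 lower, with a median of 0.17. Egr2 changed by 2.58, Egr1 by 0.69, Egr4 by 0.59 and the nuclear receptor Nr4a1 by 0.50. TG9.1.3 was the highest right ELE library for these 4 genes, and without it Egr2 was at 1.49 and Egr1 at 0.42, still called, and Egr4 at 0.33 and Nr4a1 at 0.26, not called. Egr2 lay at 2.35, 7.83 and 1.30 CPM in ELE mice TG7.3.1, TG9.1.3 and TG9.2.1 and at 1.18, 0.224 and 0.539 CPM in sedentary mice TG7.3.3, TG9.1.1 and TG9.2.3, all ELE above all sedentary, as were 3.71% of all genes. Of 28 upstream regulators 1 was called, the ERK-driven kinase gene Rps6ka3 at 0.42, and no dimer partner of 14, turnover factor of 14 or linked target of 19 was.

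In the kept SIT libraries 2 of 27 further immediate early genes were called higher, Arc at 0.77 and Nr4a1 at 0.74, with a median change of 0.26, beside 1.54% of all genes. The median was 0.06 without NT6.303, the highest kept library for Arc. The Nr4a1 call held without each of the 5 kept libraries, while Arc was at 0.31 without NT6.303 and 0.51 without NT6.305, called in neither. Among the other lists the dimer partner Batf3 was called at 2.43, the ERK phosphatase Dusp5 at 0.46, and of the targets the neurotrophin Bdnf at 0.44 and the deacetylase Sirt1 at 0.49, with 0 of 28 upstream regulators. These 4 calls were lost without NT6.305, and those of Batf3, Bdnf and Sirt1 also without NT6.303, that of Batf3 without TG7.4.1 and that of Sirt1 without NT6.306. With all 8 SIT libraries Batf3 was at 2.15 and Sirt1 at 0.22, and without NT6.304 they were at 0.51 and 0.10, with no call in either. With all 8 SIT libraries 16 of 27 immediate early genes were called higher beside 2.29% of all genes, with a median of 1.06, and without NT6.304 there were 5 of 27 beside 1.54%, with a median of 0.24. The median of all genes in the kept libraries was 0.001.

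Markers of other cells moved with exercise in some of these comparisons. In the kept SIT libraries 3 of 6 dentate granule cell markers were called higher in ELE (Pdzd2, Dsp and Prox1), beside 1.54% of all genes, their sum running from 626 to 798 CPM in ELE and 539 to 622 CPM in sedentary mice. There 4 of 8 choroid plexus markers were called lower, with sums of 131 to 580 against 598 to 677 CPM, and 2 of 8 interneuron markers, with sums of 66.4 to 79.9 against 81.3 to 81.9 CPM, beside 2.11% of all genes called lower. Without 1 of the 5 kept libraries these counts ran from 2 to 5 for dentate granule markers, from 0 without NT6.305 to 7 without TG7.4.2 for choroid plexus and from 1 to 3 for interneurons. In the right hippocampus 6 of 7 tested choroid plexus markers were called lower, with sums of 17.3 to 44.3 against 36.0 to 1184 CPM, and 3 of 10 endothelial and mural markers, beside 1.23% of all genes called lower. In the left hippocampus 1 of 6 dentate granule markers was called higher, beside 1.1% of all genes, and none of the choroid plexus or endothelial ones. Excitatory neuron markers had 0 of 10 called in SIT, left and right. No marker of these lists was at 0 in every library, and the part of these cells in the Fos and Junb changes was not tested.

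Across the 20 libraries most members rose and fell together, and much of that lay in 1 library. Of the 15 pairs of 6 members, 14 had a Pearson correlation of log2(CPM + 0.5) at an adjusted permutation p under 0.05, 5 had a Spearman correlation and 5 had both. Without NT6.304, 2 pairs of 15 had both. The median Pearson r fell from 0.65 to 0.35. Fos with Fosb went from r = 0.88 (adjusted permutation p = 0.0072) and rho = 0.37 (adjusted permutation p = 0.131) to r = 0.44 (adjusted permutation p = 0.150), and Fosb with Junb from r = 0.91 to 0.46.

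**Figure D4:**
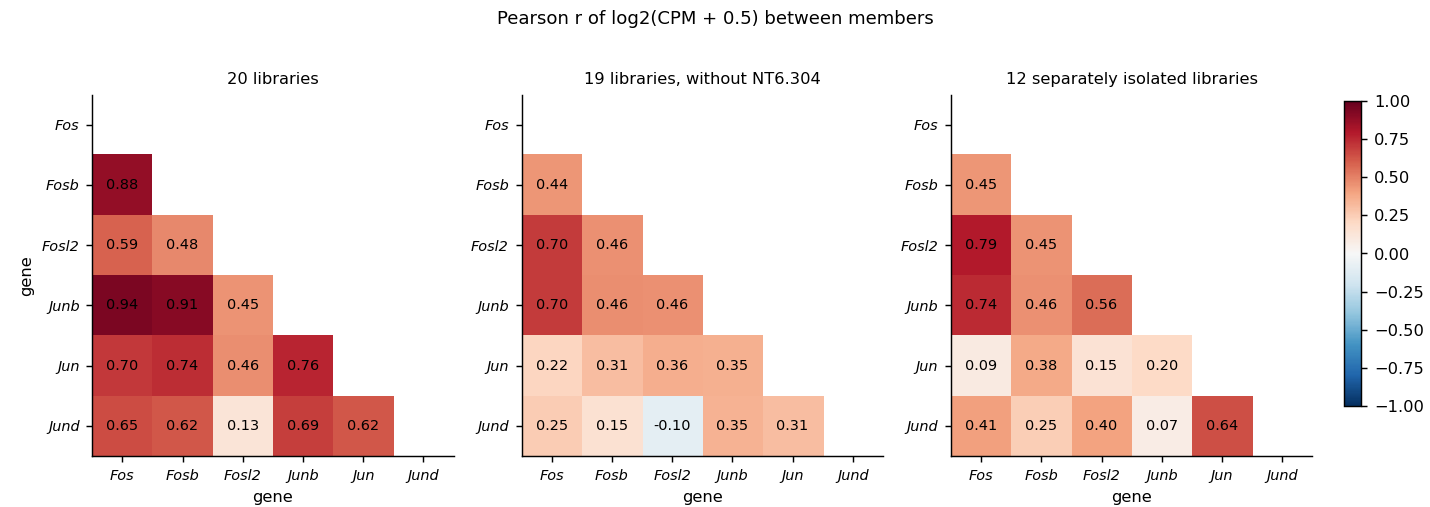
Pearson r of log2(CPM + 0.5) for the 15 pairs of 6 members over 20 libraries, over 19 without NT6.304 and over the 12 separately isolated ones, with red for positive r and blue for negative. From the first panel to the next the Fos and Junb pair falls from 0.94 to 0.70 and the Fos and Fosb pair from 0.88 to 0.44, while Fos and Fosl2 go from 0.59 to 0.70.

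The 2 pairs that remained join Fos with Junb and Fos with Fosl2. Fos and Junb, which can form a dimer, had r = 0.94 and rho = 0.79 over 20 libraries (adjusted permutation p = 0.0010 and 0.0012) and r = 0.70 and rho = 0.75 over 19 (adjusted permutation p = 0.0083 and 0.0070). Fos and Fosl2, which cannot form a stable dimer, had r = 0.59 and rho = 0.73 over 20 (adjusted permutation p = 0.0095 and 0.0031) and r = 0.70 and rho = 0.69 over 19 (adjusted permutation p = 0.0083 and 0.0097). Without the 2 libraries farthest from the median of Fos, r was 0.79 with Junb and 0.69 with Fosl2 over 18 libraries. Without NT6.304 and then the 2 farthest of the rest, Fos and Junb still passed by both measures over 17 libraries, while Fos and Fosl2 had r = 0.65 (adjusted permutation p = 0.0385) and rho = 0.60 (adjusted permutation p = 0.0718), and so no longer passed by rank.

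Both pairs held among the 12 separately isolated libraries. There Fos and Junb had r = 0.74 and rho = 0.83 (adjusted permutation p = 0.0333 and 0.0149) and Fos and Fosl2 r = 0.79 and rho = 0.81 (adjusted permutation p = 0.0286 and 0.0149). Among the 8 SIT libraries no pair passed. Fos and Junb had r = 0.98 there and 0.68 without NT6.304, Fos and Fosl2 0.47 and 0.43, over 8 and 7 libraries. With group means subtracted and without NT6.304, so that no group difference entered, r was 0.67 for Fos and Junb and 0.70 for Fos and Fosl2 over 19 libraries (adjusted permutation p = 0.0082 and 0.0066). The permutations treated these values as independent, though values within a group are tied by its mean, so p-values in that setting can be too small. Another pair, Jun and Junb, passed by both measures in that setting, with r = 0.69 and rho = 0.72 (adjusted permutation p = 0.0066 and 0.0097). Jun and Jund did so over the 17 libraries that the study kept, with r = 0.63 and rho = 0.76 (adjusted permutation p = 0.0302 and 0.0028), and neither pair did over the 19 without group means subtracted.

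**Figure D5:**
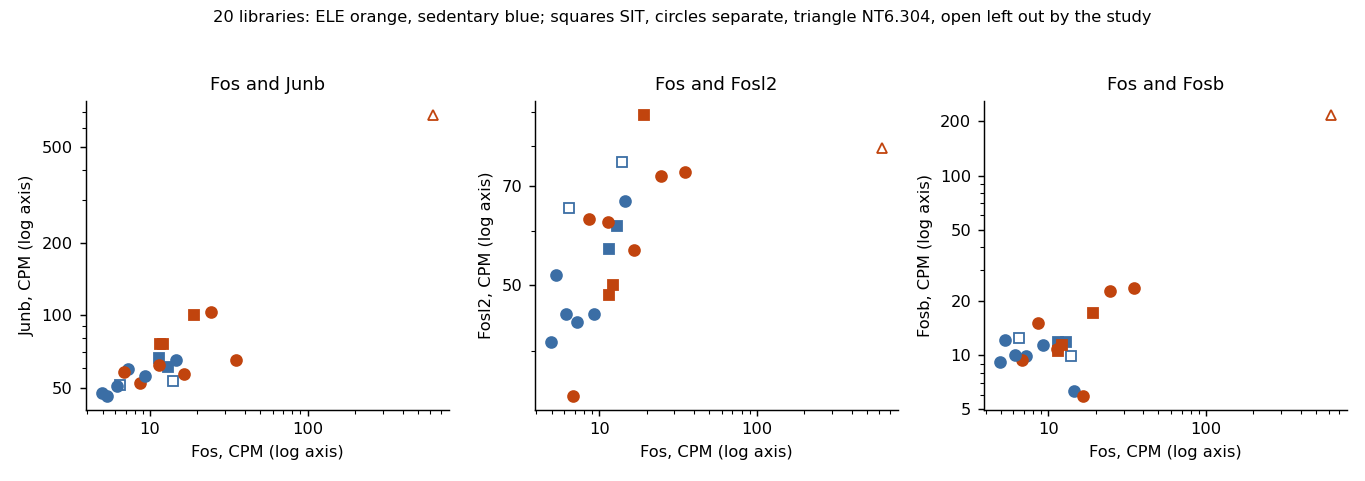
CPM of Junb, Fosl2 and Fosb against CPM of Fos in each of the 20 libraries, on log axes, with ELE in orange, sedentary in blue, SIT as squares, separate libraries as circles, NT6.304 as a triangle and libraries left out by the study open. Over the 19 libraries other than NT6.304, Junb and Fosl2 rise with Fos (r = 0.70 for each) and Fosb less so (r = 0.44).

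The genes most like each member over the 20 libraries were sought by Pearson r among the 12892 protein-coding genes averaging 1 CPM or more. They were Atf3 (r = 0.95), Rgs2, Dnajb11, Ier5 and Gadd45g for Fos, and Gadd45b (r = 0.95), Arc, Scg2, Btg2 and Egr3 for Fosb. For Junb they were Homer1 (r = 0.93), Egr4, Btg2, Arl4d and Rasl11b. Most of these are activity-induced genes that were also high in NT6.304, and without that library the lists shared 3, 3 and 0 of 5 genes with these. For Fosl2 they were Dimt1 (r = 0.80), Sik1, Rcbtb2, Zw10 and Stard4, of which 4 of 5 remained. Jun was most like Rnf4 (r = 0.88), Sf1, Akirin2, Max and Cited2, with 1 of 5 shared, and Jund most like Cinp (r = 0.96), Erh, Ube2f, Chchd2 and Jpt1, with 2 of 5 shared.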

How the data were processed

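Tagged ribosomes were pulled down from Emx1-NuTRAP hippocampus and their RNA was sequenced with a directional kit. The authors checked reads with FastQC 0.11.9, aligned them to GRCm38.p6 with STAR 2.7.3a, removed duplicates with Picard 1.87, and deposited 1 table of counts per gene, made with strand over the exons of each gene in R 4.1.0. These are raw counts, and the authors' own comparisons used DESeq2 1.32.0. A further 24 columns, of wild-type mice, were not used here. Libraries were placed in groups by the mouse numbers in the study's supplement, and the 5 SIT libraries kept by the study were identified by matching its mean normalized counts for 633 of 633 genes, where the next best of 24 subsets matched 7. No 2 libraries of a group were alike within sampling noise.

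Counts were filtered with filterByExpr, scaled by TMM and tested with the quasi-likelihood test of edgeR 4.0.16 in R 4.3.3, over all genes, with Benjamini-Hochberg adjustment. CPM values are TMM-scaled and, between genes, divided by exonic length in kilobases. Single members were also tested by exact permutation, and pairs by 100000 permutations, on log2(CPM + 0.5). Members of the family and the gene lists were chosen with earlier results of these data known. The text names the 7 members, up to 4 called genes of each list and comparison, and the 5 genes most like each member, and any other gene was chosen after its values were seen. Alternatives were DESeq2 1.42.0, other size factors, no filter, a block on the first part of the mouse number, other sets of libraries and leaving out each mouse. Whether shared numbers pair the mice was not settled. The scripts were tested on simulated data. P-values of group comparisons measure the spread between mice within a group. Those of correlations come from shuffling libraries across groups, so group differences enter them unless group means were subtracted. The subtracted values are not independent, so p-values in that setting can be too small.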

Additional observations from a re-analysis of the deposited data

Results flagged for a closer look

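In the SIT ELE group of 4 mice the library NT6.304 lay far from the others for 3 members. The gap between it and the nearest mouse took up 0.875 of the group's whole range on the log2 scale for Fos (621 CPM, group median 15.7), 0.842 for Fosb (217 CPM, median 14.4) and 0.873 for Junb (676 CPM, median 88.0). These were 3 of 12 groups of 4 tested, where chance alone would mark about 1 in 20, and the 3 values come from the same library.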

How the results depend on the processing

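Most values of the members kept their direction and their side of the threshold: outside the fits that leave out each mouse in turn, 174 values gave the same verdict, 14 a stronger one, 3 a weaker one and 7 a reversed one. Most of the unchanged ones were values that no fit called. The 3 weaker ones were calls of Fos, lost with DESeq2 in left and in right hippocampus and with the block in left. Sets of SIT libraries other than those planned, the settings without NT6.304 or the TG9.1 mice, the all-8 block and the values of gene lists without 1 mouse were chosen after seeing the data. With 2 to 4 mice in a group a Fos change near 2-fold passed or missed the threshold with 1 mouse, and Fosl1 was too low to test. The causes of the changes below were not tested.

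Of 6 members, 1 was called in SIT, and 3 with all 8 libraries. In left hippocampus 1 was called and 0 with DESeq2, and in right hippocampus 1, with 0 by DESeq2 and 3 with no filter on low counts. Over both hemispheres 1 was called and 2 with no filter, and between SIT and separate isolation 0, and 3 with all 8 SIT libraries. By the exact test 0 members passed in the kept libraries, where none could since its smallest possible p was 0.1. With all 8 SIT libraries 1 passed, and 1 with all 8 without NT6.304. Of 15 pairs, 5 covaried by both measures, 2 without NT6.304, 0 in SIT alone, 0 in SIT without NT6.304, 2 in separate libraries alone, 11 with group means subtracted, 3 with group means subtracted and without NT6.304, 3 without the 3 libraries left out by the study, 2 without the 2 libraries farthest from the median, and 1 without NT6.304 and then the 2 farthest of the rest.

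The deviations of mice sharing the first part of the mouse number correlated between -0.09 and 0.14, against -0.13 to 0.19 for other mice. With so few mice in a group this cannot show whether the number marks a pairing. A replicate block on this number gave kept SIT changes of 0.64 for Fos, 0.55 for Fosb, 0.60 for Fosl2 and 0.65 for Junb. These rest on NT6.303 alone against sedentary NT6.305 and NT6.306, since TG7.4 holds no sedentary mouse. With all 8 SIT libraries 4 members were called, from NT6.303 and NT6.304 against the same sedentary mice, as NT7.2 holds no ELE mouse. In left hippocampus 0 were called, and the other counts of members fitted with the block did not change. No block could be fitted between SIT and separate isolation, whose mice share no first number.

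Changes of sign arose in SIT for Jun at 0.14 with all 8 libraries and 0.26 with the block added, for Jund at 0.56, 0.31 without NT6.304 and 0.32 with the block, and for Fosl2 at -0.054 without NT6.304. Over both hemispheres Fosb was at -0.039 without the TG9.1 mice. The correlation of Fosl2 and Jund, 0.13 over 20 libraries, was -0.098 without NT6.304, -0.10 in SIT, -0.51 in SIT without NT6.304, -0.029 with group means subtracted and without NT6.304, and -0.25 without NT6.304 and then the 2 farthest of the rest.

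Leaving out 1 mouse at a time, members called ran from 0 to 1 in SIT, 1 to 4 with all 8 SIT libraries, 0 to 3 in left, 0 to 2 in right and 1 to 3 over both hippocampi, and 0 to 1 between isolations. In SIT Fos ran from -0.050 to 0.36, Fosb from -0.098 to 0.28, Fosl2 from -0.26 to 0.24, Jun from -0.30 to -0.13 and Jund from -0.21 to 0.018. With all 8 libraries Fos ran from 0.34 to 4.27, Fosb from 0.18 to 2.82, Fosl2 from -0.12 to 0.17, Jun from -0.087 to 0.25 and Jund from 0.31 to 0.77. In left hippocampus Jun ran from -0.10 to 0.029 and Jund from -0.13 to 0.14. The interaction ran from -0.58 to 0.76 for Fos, -0.62 to 0.37 for Fosb, -0.071 to 0.41 for Fosl2 and -0.38 to 0.18 for Junb. Left against right ran from -0.53 to 0.18 for Fos, -0.18 to 0.26 for Fosb, -0.16 to 0.091 for Junb and -0.017 to 0.12 for Jund, and the isolations from -0.040 to 0.15 for Fosb.

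Over all genes 665 were called in SIT, with 1350 with all 8 libraries, 1261 in a fit of these libraries without NT6.304 and 1619 with all 8 and the block. In left hippocampus the count was 367, with 552 by DESeq2 and 691 with no filter, in right 347 and 715 with no filter, and over both 360, with 615 by DESeq2 and 961 with no filter. The interaction gave 414 and 1041 with no filter, left against right 208, with 426 by DESeq2 and 663 with no filter, and isolation 2716 and 4215 with no filter. Leaving out 1 mouse gave 355 to 1086 in SIT, 731 (without NT7.2.4, and 888 without NT7.2.3) to 1971 with all 8 SIT libraries, 220 to 945 in left, 308 to 643 in right, 294 to 589 over both, 354 to 718 for the interaction and 194 to 437 for left against right.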
